A study of Mus musculus with 12 samples.

Results

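The genes described here are the variable (V) segments of the immunoglobulin heavy chain, whose symbols start with Ighv, in common lymphoid progenitors (CLPs) of mice that carry, lack or re-express the long noncoding RNA Firre. They were chosen by symbol from the 47643 genes of the deposited table, and 34 genes in 10 families were found. The table gives gene identifiers without symbols. Only 6 of the 34 symbols (Ighv1-18, Ighv3-8, Ighv8-12, Ighv8-14, Ighv12-3 and Ighv15-2) came from a table of gene names that is independent of the measurements. The other 28 symbols came from the 1999 genes at the top of each of the study's lists of differential expression, which are ordered by p-value. Of these 28 genes, 20 were on the list for ∆Firre against WT, 15 were on the list for rescue against ∆Firre, and 7 were on both. These 28 genes were therefore in effect picked for a difference between these same libraries. Their differences are given as a description, and a difference is read as a test only for the 6. The RefSeq table of GRCm38.p6 holds 183 Ighv entries, so V genes that did not differ can be under-represented among the 34, and the sums below are sums over named genes only.

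The 3 groups had 4 male mice each, aged 27 to 32 weeks, with 1 RNA-seq library per mouse. WT mice had an intact Firre locus. The ∆Firre mice (KO in the plots) lacked the whole locus with its promoter, after a floxed allele had been recombined by CMV-Cre and backcrossed to C57BL/6J. Rescue mice carried the same deletion with tg(Firre), a Firre cDNA behind a tetracycline-responsive element and a minimal CMV promoter, and with rtTA3 driven by the CAG promoter, and they were fed doxycycline. Transgene RNA was thus not under the control of the endogenous Firre promoter. CLPs were sorted from bone marrow as lineage-negative cells with low Sca1, low cKit and IL7Rα, and their poly(A) RNA was sequenced.

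Heavy-chain V segments lie in tandem over a long stretch of chromosome 12. In developing B cells the RAG recombinase joins D to J and then 1 V segment to DJ, and a rearranged heavy chain therefore uses a single V segment. V segments can also be transcribed before they rearrange. CLPs stand before commitment to the B lineage, whereas antibody-secreting plasma cells hold very large amounts of rearranged heavy-chain RNA. Gene-level values add up reads over the V segment and do not tell germline from rearranged transcripts.

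By RefSeq coordinates on GRCm38.p6, the build of the files, the 34 segments lie between chr12:113597448-113597741 (Ighv5-4) and chr12:115833950-115834243 (Ighv1-75). Ighv9-3, which had the highest mean TPM over the 12 libraries, is at chr12:114140692-114141122, Ighv3-8 at chr12:114322376-114322666, Ighv1-55 at chr12:115208137-115208527, Ighv1-69 at chr12:115623203-115623595 and Ighv1-74 at chr12:115802690-115803080. Families are defined by sequence similarity. The last 60 bases of the V coding sequence are shown for 9 members, because they show how alike members of 1 family are and where the segment ends at the junction. They come from the Gencode vM1 transcripts, which held 15 of the 34 genes by symbol. Capitals mark the codons for Tyr-Tyr-Cys or Tyr-Phe-Cys, the conserved end of the V framework, followed by the last bases of the segment.
Ighv9-3: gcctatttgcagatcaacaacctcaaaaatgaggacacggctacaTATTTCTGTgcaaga
Ighv10-3: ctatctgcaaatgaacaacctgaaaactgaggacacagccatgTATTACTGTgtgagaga
Ighv3-8: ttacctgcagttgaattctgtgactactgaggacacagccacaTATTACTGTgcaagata
Ighv12-3: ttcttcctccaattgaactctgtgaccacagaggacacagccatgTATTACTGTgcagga
Ighv15-2: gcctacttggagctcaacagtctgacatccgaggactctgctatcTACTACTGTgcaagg
Ighv1-9: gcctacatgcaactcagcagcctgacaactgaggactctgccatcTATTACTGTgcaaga
Ighv1-12: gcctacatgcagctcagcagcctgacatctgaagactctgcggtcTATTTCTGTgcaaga
Ighv1-42: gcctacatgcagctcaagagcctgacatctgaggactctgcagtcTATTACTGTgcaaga
Ighv1-19: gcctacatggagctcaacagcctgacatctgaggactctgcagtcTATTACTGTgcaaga
Within Ighv1, the sequences of 8 genes in this annotation were 82.5% to 94.4% identical over their aligned bases (median 85.5% over 28 pairs). Between families the identity was 61.4% to 77.9% (median 66.5% over 63 pairs). Some of these sequences are partial, as that of Ighv1-18 (306 bases) lacks the conserved end. The least alike Ighv1 pair, Ighv1-18 and Ighv1-12, was aligned over 252 bases. Ighv8-14, whose sequence there is short, was left out of these pairs, so no other family was compared within itself. The closest pair was Ighv1-18 and Ighv1-19. How the study's counting treated reads that match several V segments is not given in the sources used here, so the split of reads between close members, most of all within Ighv1, is uncertain.

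Depth and identity of the libraries were examined first. Reads recovered from the spacing of the TPM values (transcript abundance, with one common total for all libraries) numbered 10985030 to 18163383 per WT library, 14363978 to 17588846 per ∆Firre library and 25766888 to 32554442 per rescue library. Firre was at 25.2 to 31.6 TPM in WT, at 0 in every ∆Firre library, and at 59.9 to 174 TPM in rescue. Summed TPM of 6 CLP markers (Il7r, Flt3, Kit, Ly6a, Dntt and Rag1), each detected in every library, ranged from 5453 to 8121 in WT. It ranged from 6604 to 6964 in ∆Firre and from 7577 to 8166 in rescue. Dntt made up most of this sum. In rescue, Kit was lower than in ∆Firre and WT (log2 differences -0.49 and -0.40, limma adjusted p = 0.0137 and 0.0373). Rag1 was higher than in both (0.73 and 0.85, limma adjusted p = 0.0077 and 0.0039). By the library numbers in the labels, WT and ∆Firre libraries fall into a lower and an upper range, each with 2 libraries of either group, and the rescue libraries have a separate range. Rescue and its range of numbers cannot be told apart.

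The ∆Firre libraries held the most Ighv RNA and the rescue libraries by far the least. Summed TPM of the 34 genes was 1548, 1255, 636 and 2689 in WT mice 6, 8, 10 and 11. In ∆Firre mice 8, 9, 11 and 12 it was 2991, 3264, 5289 and 3832. In rescue mice 1 to 4 it was 182, 199, 189 and 220. The groups did not overlap in any comparison. Means were 1532 ± 860 in WT, 3844 ± 1025 in ∆Firre and 197 ± 16.3 in rescue (SD, n = 4), so that the ∆Firre mean was 2.51 times the WT mean and the rescue mean 0.129 times the WT mean. As WT and ∆Firre did not overlap, both ∆Firre libraries also lay above both WT libraries within each range of library numbers. The lack of overlap fixed this in advance, so it is no separate check. These sums were made mostly of genes chosen for their differences. Summed TPM of the 6 independently named genes was 157, 67.8, 0 and 1.24 in WT, 246, 246, 613 and 143 in ∆Firre, and 11.9, 19.8, 0 and 16.9 in rescue. Over these 6, WT and ∆Firre overlapped, and every rescue library lay below every ∆Firre library. The 8 genes named only from the list for rescue against ∆Firre covered much the same range in WT (370 to 2319 TPM) and in ∆Firre (355 to 2362 TPM), and reached at most 4.60 TPM in rescue. In bulk samples, fewer cells that contain a transcript and less of it per cell cannot be told apart.

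**Figure D1:**
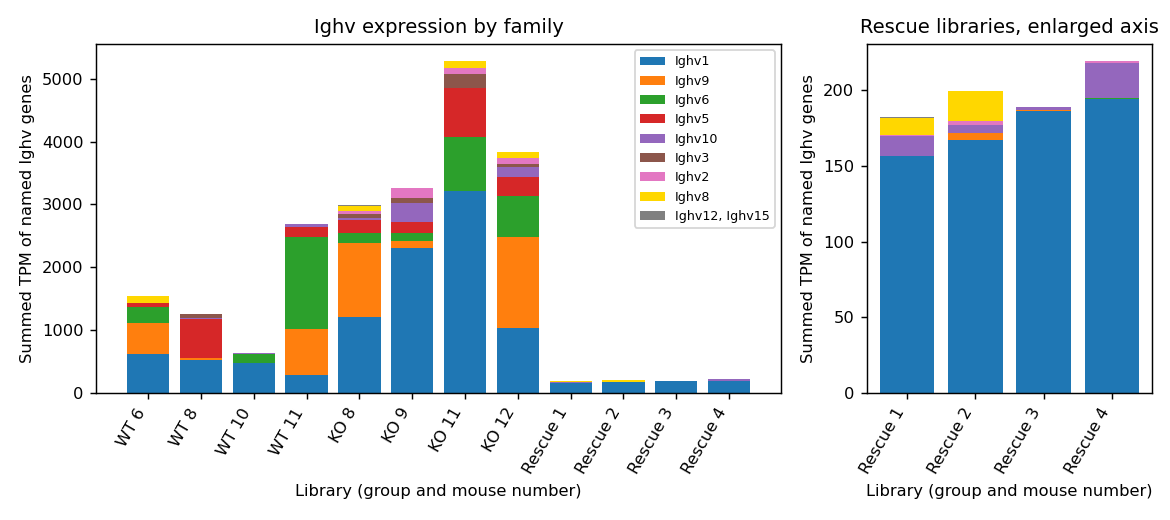
Summed TPM of the named Ighv genes in each of the 12 libraries, stacked by family, with the 4 rescue libraries repeated on an enlarged axis. The ∆Firre (KO) bars reach 2991 to 5289 TPM and differ in their family makeup, whereas the rescue bars reach 182 to 220 TPM and are mostly Ighv1.

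Ighv1, with 18 of the 34 genes, was the largest family. Its summed TPM was 291 to 615 in WT, 1031 to 3217 in ∆Firre and 157 to 194 in rescue, without overlap between any groups. Ighv2, with the 2 genes Ighv2-3 and Ighv2-5, was at 0 to 4.27 TPM in WT and at 35.9 to 161 TPM in ∆Firre. In rescue it was at 0.272 to 2.59 TPM. Different genes carried this: Ighv2-5 was at 35.9 and 161 TPM in ∆Firre mice 8 and 9 and at 0 in the other two, while Ighv2-3 was at 92.5 and 92.6 TPM in ∆Firre mice 11 and 12 and at 0 in the others. The remaining families overlapped between WT and ∆Firre. This split is bound to how the genes were named. Most Ighv1 genes and both Ighv2 genes came from the list for ∆Firre against WT. Ighv9-3, both Ighv6 genes and most Ighv5 genes came only from the list for rescue against ∆Firre. The contrast between families in ∆Firre against WT therefore holds no independent support. Ighv9 was at 0.486 to 728 TPM in WT and at 0 to 1456 TPM in ∆Firre. Ighv6 had nearly the same mean in both (466 ± 675 and 446 ± 359 TPM, SD, n = 4). The WT mean rested mostly on WT mouse 11 (1467 TPM), with 246, 0 and 151 TPM in WT mice 6, 8 and 10. Ighv5 was at 2.81 to 622 TPM in WT and at 173 to 783 TPM in ∆Firre. In rescue, Ighv6 and Ighv5 were at or near 0 (at most 0.298 and 0.268 TPM), and Ighv9 reached 4.60 TPM.

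Ighv1 accounted for 83.8% to 98.8% of the Ighv sum in rescue libraries, for 26.9% to 70.8% in ∆Firre and for 10.8% to 73.8% in WT, so that WT and ∆Firre overlapped. The rescue share is bound to how the genes were named, because every Ighv5, Ighv6 and Ighv9 gene was on the list for rescue against ∆Firre. Genes named only from the list for ∆Firre against WT made up 82.7% to 97.2% of the rescue sums. By position along the locus, the 10 named genes that lie 1500 kb or more from the first, D-proximal Ighv entry, mostly Ighv1, summed to 83.4 to 520 TPM in WT, 663 to 2728 TPM in ∆Firre and 115 to 168 TPM in rescue. In this distal stretch WT and ∆Firre did not overlap, whereas they overlapped in each of the 3 stretches closer to the D segments. The stretch next to it held Ighv1 genes alone (157 to 239 TPM in WT and 5.09 to 598 TPM in ∆Firre). All Ighv1 genes of the distal stretch were named from the list for ∆Firre against WT, so its difference between these groups holds no independent support.

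**Figure D2:**
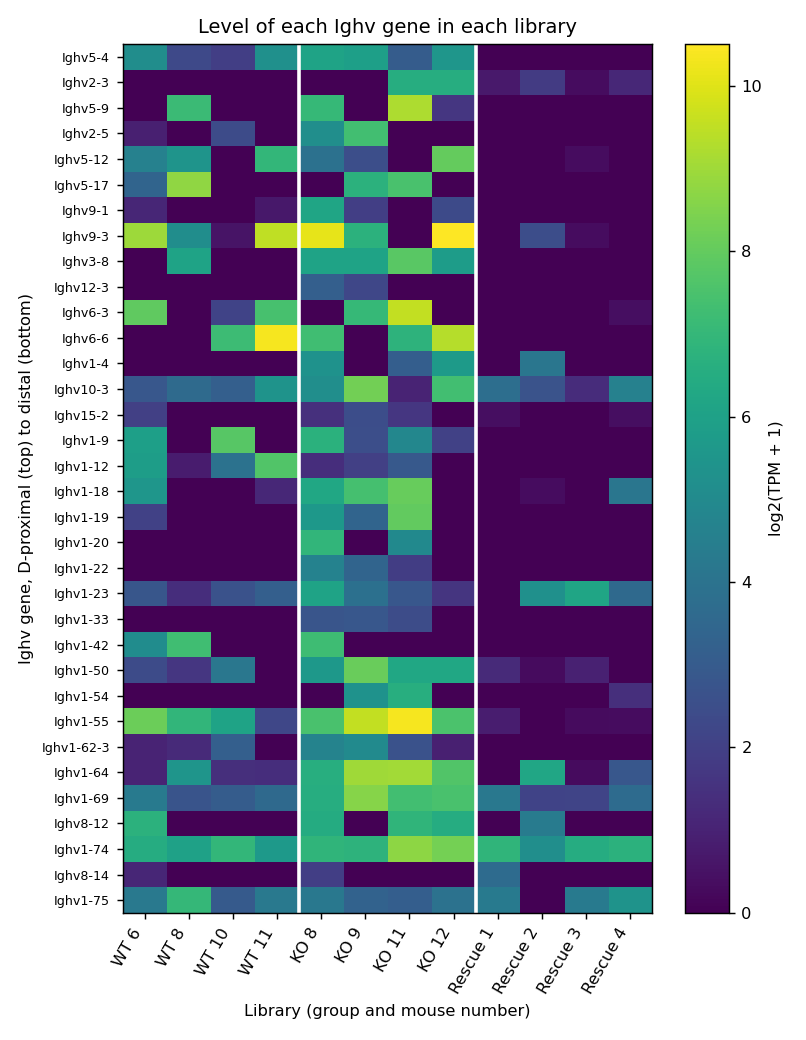
Level of each of the 34 genes in each library as log2(TPM + 1), with genes ordered from the D-proximal end (top) to the distal end (bottom) and white lines between WT, KO and Rescue. High values are scattered over different genes in different WT and KO libraries, and the rescue columns are dark except for a few genes such as Ighv1-74.

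The signal was uneven over genes, and different mice used different genes. Ighv9-3 was at 499, 34.8, 0.486 and 728 TPM in the WT libraries (mice 6, 8, 10 and 11). In ∆Firre mice 8, 9, 11 and 12 it was at 1104, 106, 0 and 1452 TPM, and in rescue at 0, 4.60, 0.269 and 0 TPM. Ighv9-3 was thus the top gene of ∆Firre mice 8 and 12 and was listed at 0 in ∆Firre mouse 11. Ighv6-6 was as uneven, with 0, 0, 147 and 1296 TPM in WT, 157, 0, 110 and 646 TPM in ∆Firre, and 0 in every rescue library. It supplied 48.2% of the Ighv sum of WT mouse 11. Ighv6-3 was at 0 to 246 TPM in WT and 0 to 741 TPM in ∆Firre, with 2 of 4 ∆Firre libraries at 0. Ighv5-9 was above 0 in WT mouse 8 alone among WT libraries (141 TPM) and reached 599 TPM in ∆Firre mouse 11. Ighv5-17 supplied 34.6% of the sum of WT mouse 8 (434 TPM) and was at 0 in ∆Firre mice 8 and 12. Ighv1-9 led WT mouse 10 with 219 TPM. For all these genes the WT and ∆Firre libraries overlapped.

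The most abundant single gene made up 32.2% to 48.2% of the Ighv sum in WT libraries, 22.6% to 37.9% in ∆Firre libraries and 36.6% to 64.5% in rescue libraries. The effective number of genes (inverse Simpson index, which equals the gene number if all are equally abundant) was 3.14 to 5.71 in WT, 5.14 to 8.62 in ∆Firre and 2.24 to 4.53 in rescue. Between 15 and 24 of the 34 genes were above 0 in WT, 20 to 30 in ∆Firre and 9 to 12 in rescue. These ranges overlapped between WT and ∆Firre for the gene number and the index. The rescue libraries were the deepest, as 3 reads on a V segment of 351 bases, the usual length here, were worth 0.767 to 0.935 TPM in them and 1.46 to 2.43 TPM in WT. Only 593 to 827 recovered reads lay on the 34 genes in a rescue library, fewer than the 1354 to 4435 of WT libraries and the 5346 to 10426 of ∆Firre libraries.

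**Figure D3:**
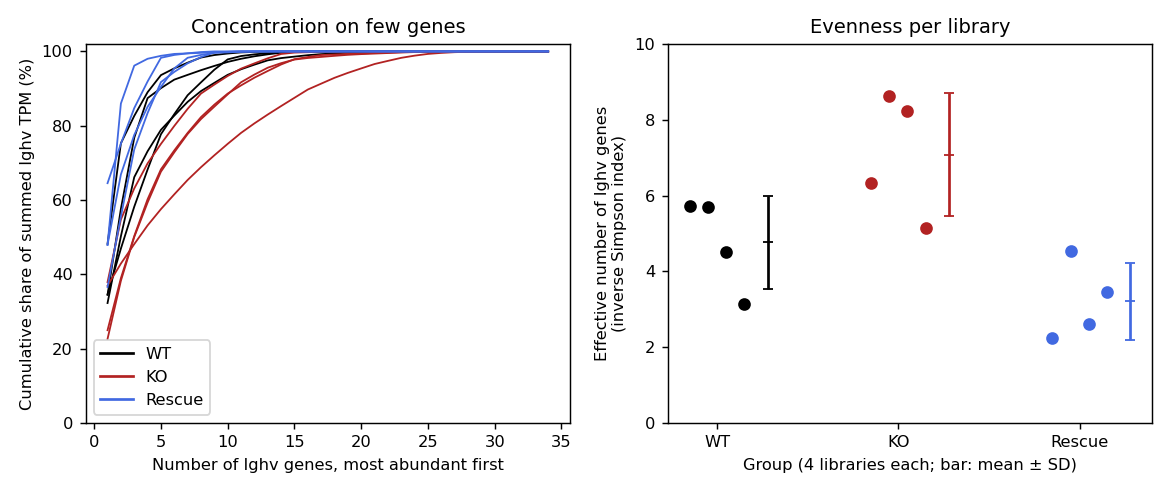
Left, cumulative share of the Ighv sum (percent) against the number of genes, most abundant first, with 1 line per library. Right, effective number of Ighv genes per library with the mean ± SD per group (n = 4), from 2.24 to 4.53 in rescue to 5.14 to 8.62 in KO.

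By the median SD, differences between mice of 1 group were far larger for Ighv genes than for all genes in WT and ∆Firre, but not in rescue. The median within-group SD of log2(TPM + 1) was 2.58 for the 33 tested Ighv genes in ∆Firre, against 0.206 for all 14479 genes tested. In WT it was 1.69 against 0.247. In rescue, where most of the genes were near 0, it was 0.188 against 0.335. Even so, 10 of the 33 Ighv genes had an SD over 1 in rescue, against 10.4% of all genes. Rank profiles over the 34 genes were also loosely related between mice of a group, with a median Spearman's rho of 0.376 over the 6 WT pairs, 0.215 over the 6 ∆Firre pairs and 0.596 over the 6 rescue pairs. In rescue libraries 9 to 12 of the 34 genes were above 0, and rho was not recomputed without shared zeros.

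Only 3 genes were above 0 in all 12 libraries: Ighv1-74, Ighv1-69 and Ighv10-3. Ighv1-74 was at 89.3, 64.0, 122 and 48.9 TPM in WT, at 116, 109, 426 and 320 TPM in ∆Firre and at 118, 36.0, 90.5 and 105 TPM in rescue. The rescue libraries covered almost the same range as WT, and Ighv1-74 was the top gene of 3 of the 4 rescue libraries. Ighv1-69 was at 19.2, 5.67, 7.30 and 11.1 TPM in WT, at 92.3, 385, 158 and 177 TPM in ∆Firre and at 17.5, 3.32, 3.50 and 11.8 TPM in rescue. Every ∆Firre library exceeded every other library for this gene, whose WT and rescue ranges overlapped. Ighv10-3 was at 6.14 to 40.9 TPM in WT, 1.04 to 303 TPM in ∆Firre and 1.50 to 23.4 TPM in rescue, and its 3 groups overlapped. These genes were picked out by their own values. Over the 7 genes above 0 in 11 or 12 libraries, rescue (156 to 199 TPM) overlapped WT (132 to 418 TPM), and ∆Firre was above both (602 to 2442 TPM). The other 27 genes summed to 417 to 2556 TPM in WT, 1196 to 2846 TPM in ∆Firre and 1.78 to 43.8 TPM in rescue. Genes at 0 in rescue fall into the latter set by the way the sets were made, so the split is a description only.

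Gene by gene, ∆Firre was compared with WT by limma on log2(TPM + 1). Of the 33 Ighv genes tested, 1 was called higher at an adjusted p of 0.1 (Benjamini-Hochberg over 14479 genes) and none lower. Over all genes the share called was 0.0138% higher and 0.00691% lower. The called gene was Ighv1-69, with a log2 difference of 4.05 (SE 0.53, limma adjusted p = 0.0341). This call was lost when ∆Firre mouse 9 or 11 or WT mouse 8 or 10 was left out, and over 22 alternatives its adjusted p ranged from 0.00881 to 1. By limma-voom on the recovered reads no Ighv gene was called in either direction. At an unadjusted p under 0.05, 16 Ighv genes were higher and 1 was lower in ∆Firre, where 5.3% of all genes differed at that level in either direction. Fitted differences were positive for 28 of 33 genes, with a median of 2.02, against -0.06 over all genes. Ighv1-64, Ighv1-69 and Ighv1-50 were higher in every ∆Firre library than in any WT library, and 0.843% of all genes were. Ighv1-64 was at 1.04, 43.5, 1.69 and 1.61 TPM in WT and at 95.7, 511, 525 and 201 TPM in ∆Firre, and WT mouse 8 stood well above the other WT mice. As 20 of the 34 genes were named from this very contrast, the counts hold no support of their own.

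Among the 6 independently named genes, 5 were tested, and none was called for ∆Firre against WT by limma or by limma-voom, while 2 had an unadjusted p under 0.05. The fitted differences had a median of 3.27. Their signs hold no support, because Ighv15-2 passed the filter on low values only through its ∆Firre libraries and Ighv12-3, the gene left out, fell just below it. Ighv3-8 was at 0, 67.8, 0 and 0 TPM in WT, at 68.2, 67.7, 225 and 54.4 TPM in ∆Firre and at 0 in every rescue library. WT mouse 8 lay within the ∆Firre range and the other WT mice were at 0, for a log2 difference of 4.93 (SE 1.11, limma adjusted p = 0.889). Without WT mouse 8 this gene was called (limma adjusted p = 5.61e-05), and over 22 alternatives the adjusted p ranged from 5.61e-05 to 1. Ighv8-12 was at 108 TPM in WT mouse 6 and at 0 in the other WT mice, at 88.2, 0, 117 and 88.8 TPM in ∆Firre, and at 19.5 TPM in rescue mouse 2 alone among rescue mice. Ighv12-3 and Ighv15-2 stayed at or below 8.13 and 4.67 TPM in every library.

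Rescue was then compared with ∆Firre, the genotype it shares apart from the transgenes. Only the rescue mice are described as fed doxycycline. Transgenes, diet and range of library numbers cannot be told apart in this comparison. Here 16 of 33 Ighv genes were called lower and none higher (13 and 0 by limma-voom, and 0 higher at an unadjusted p under 0.05), whereas 19.3% of all genes were called lower and 8.58% higher. After rescaling by the median ratio, 14 of 32 Ighv genes were called lower, against 12.9% of all genes. The median fitted difference was -3.33, against -0.16 over all genes, and 2 of the 33 differences were positive. For 8 Ighv genes every rescue library lay below every ∆Firre library, as did 15.6% of all genes. The 15 genes named from this contrast hold no independent support. The 13 named only from the list for ∆Firre against WT were picked with the same ∆Firre libraries, so they hold none either. Of the 5 tested genes with independent names, 2 fell. Ighv8-14 passed the filter only through rescue mouse 1, so the sign of its difference was set by the filter. Ighv3-8 had a log2 difference of -6.46 (SE 1.11, limma adjusted p = 0.00254) and was called in each of the 21 alternatives run for it. Ighv1-18 had a log2 difference of -4.33 (SE 1.72, limma adjusted p = 0.0958) and was called in 6 of 21 alternatives, with adjusted p from 0.0131 to 0.228. It was lost without any 1 of WT mice 8, 10 and 11, ∆Firre mice 8, 9 and 11, and rescue mice 1, 2 and 3. Ighv1-18 was at 76.5, 170, 269 and 0 TPM in ∆Firre and at 0, 0.256, 0 and 16.6 TPM in rescue, so its groups overlapped. The largest drop was that of Ighv1-55, which was at 178, 737, 1318 and 185 TPM in ∆Firre and at 0.791, 0, 0.228 and 0.256 TPM in rescue (log2 difference -8.36, SE 1.02, limma adjusted p = 0.000294). At most 3 recovered reads lay on Ighv1-55 in any rescue library.

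**Figure D4:**
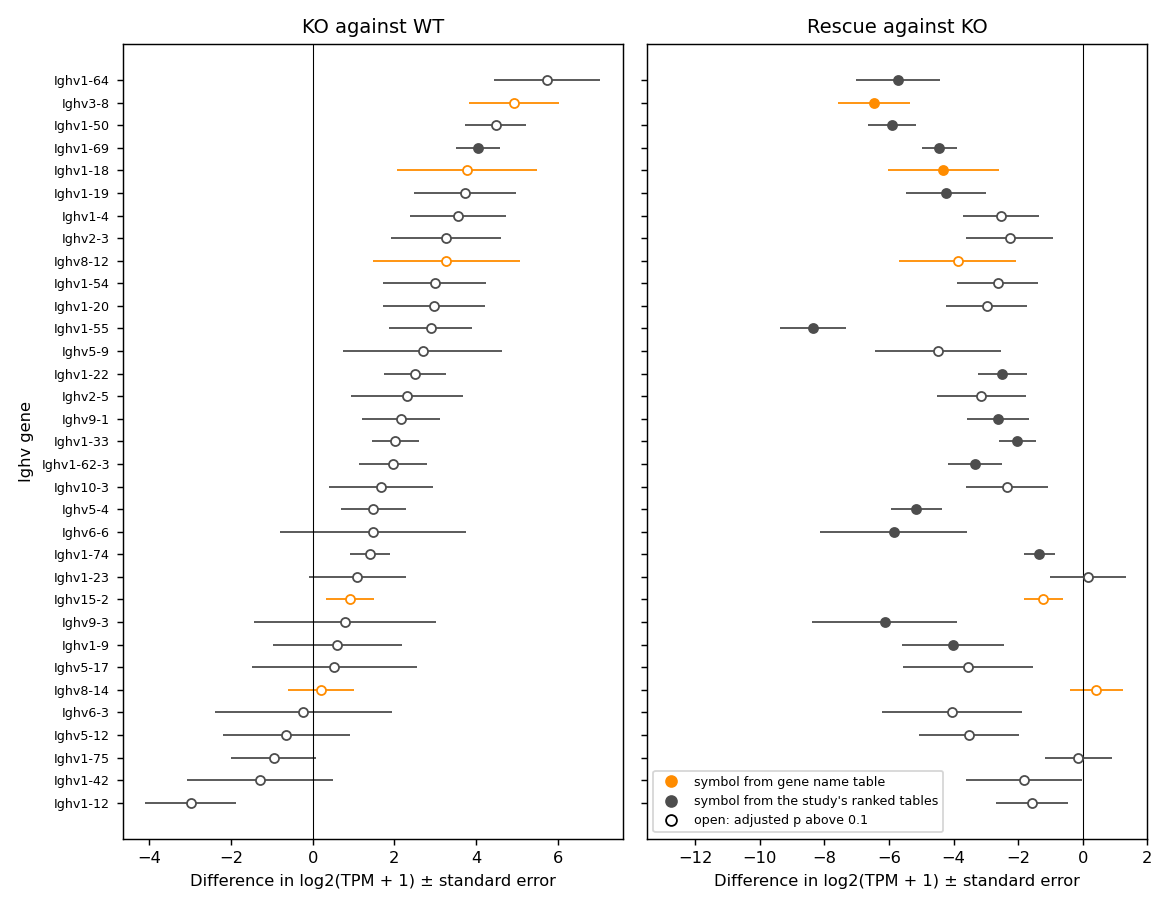
Difference in log2(TPM + 1) ± standard error for the 33 tested Ighv genes, ∆Firre (KO) against WT on the left and rescue against ∆Firre on the right, from limma over 14479 genes. Filled symbols mark the 1 gene and the 16 genes with an adjusted p of 0.1 or less, and orange marks genes whose symbol is independent of the data. Both panels share the ∆Firre libraries.

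Rescue against WT gave 4 Ighv genes called lower and none higher (2 and 0 by limma-voom, and 0 higher at an unadjusted p under 0.05), where 19.4% of all genes were called lower and 4.82% higher. This background depended on scaling. After rescaling by the median ratio 3 of 32 Ighv genes (9.38%) and 8.62% of all genes were called lower, and by limma-voom 6.06% of Ighv genes and 10.2% of all genes, so the Ighv share was below or near that of all genes in each case. The 4 genes were Ighv1-55, Ighv1-12, Ighv5-12 and Ighv5-4. Ighv1-55 was at 278, 119, 67.9 and 3.67 TPM in WT and below 1 TPM in every rescue library (log2 difference -5.47, SE 1.02, limma adjusted p = 0.00452), a call that limma-voom did not make. Ighv1-12 was at 57.2, 0.737, 14.6 and 198 TPM in WT and at 0 in every rescue library (limma adjusted p = 0.0166), and it was also low in ∆Firre, at 0 to 6.63 TPM. Ighv1-12 was thus one of the 5 genes with a negative fitted difference between ∆Firre and WT. For 3 Ighv genes every rescue library lay below every WT library, as did 14.5% of all genes. A single Ighv gene, Ighv2-3, lay above WT in every rescue library, as did 3.55% of all genes, and it rests on 1 to 10 reads per rescue library against 0 in WT. Over the 33 genes the median fitted difference was -0.65, against -0.21 over all genes. None of the 5 tested genes with independent names was called by limma or limma-voom, and none had an unadjusted p under 0.05.

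Heavy-chain constant region genes were read beside the V genes. Whether V and constant region reads came from the same RNA was not tested. Ighm, which encodes the μ chain, ranged from 2970 to 5560 TPM in WT and from 3150 to 4885 TPM in ∆Firre, and from 2347 to 2595 TPM in rescue. Ighm was lower in rescue than in ∆Firre by a log2 difference of -0.70 (SE 0.20, limma adjusted p = 0.0287) and than in WT by -0.68 (SE 0.20, limma adjusted p = 0.0358), and the call against WT was lost after rescaling by the median ratio (limma adjusted p = 0.157) and without the filter on low values (limma adjusted p = 0.114). Igha, which encodes the α chain of IgA, was at 214, 2593, 1261 and 978 TPM in WT, at 3269, 4987, 6392 and 2268 TPM in ∆Firre and at 26.1, 52.2, 1.35 and 1.83 TPM in rescue. Igha fell in rescue against ∆Firre (log2 difference -8.63, SE 0.97, limma adjusted p = 0.000194) and against WT (log2 difference -6.53, SE 0.97, limma adjusted p = 0.00131), whereas for ∆Firre against WT the log2 difference was 2.11 (SE 0.97, limma adjusted p = 0.929) and the groups overlapped. Ighg1 and Ighg2c each exceeded 100 TPM in at most 2 libraries, Ighg1 in WT mouse 10 (198 TPM) and rescue mouse 1 (166 TPM) and Ighg2c in ∆Firre mouse 8 (136 TPM).

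Markers of antibody-secreting cells were lower as a sum in rescue than in the other groups, and WT and ∆Firre overlapped. Summed TPM of 8 of 8 such markers (Sdc1, Prdm1, Xbp1, Jchain, Irf4, Tnfrsf17, Mzb1 and Derl3) was 883 to 1644 in WT, 1627 to 3437 in ∆Firre and 307 to 534 in rescue. Jchain, the joining chain of IgA and IgM, made up most of this sum in WT and ∆Firre but not in rescue, and was at 619 to 1296 TPM in WT, 1369 to 3110 TPM in ∆Firre and 1.18 to 195 TPM in rescue. Jchain fell in rescue against ∆Firre (log2 difference -6.23, limma adjusted p = 0.00145), and Tnfrsf17, the plasma cell receptor BCMA, fell too (log2 difference -2.91, limma adjusted p = 0.00162) and was at 0 in 3 of 4 rescue libraries. Prdm1, Xbp1 and Derl3 were called lower too (limma adjusted p = 0.0197, 0.00433 and 0.00737). Not all 8 markers fell. Irf4 was not called, and Mzb1 and Sdc1 were higher in rescue than in ∆Firre (log2 differences 1.34 and 0.68, limma adjusted p = 0.0061 and 0.0271). No marker of the 8 was called for ∆Firre against WT (limma adjusted p from 0.889 to 1). Even so, Jchain and Tnfrsf17 were higher in every ∆Firre library than in any WT library, as were 0.843% of all genes. Tnfrsf17 was at 5.91 to 11.1 TPM in ∆Firre and at 0.349 to 3.56 TPM in WT. The other markers overlapped. The part of antibody-secreting cells in the Ighv values was not tested. Summed TPM of 4 basophil and mast cell markers was 919 to 8083 in WT, 2669 to 3919 in ∆Firre and 63.5 to 136 in rescue. That of 4 NK cell markers was 116 to 403 in WT, 184 to 340 in ∆Firre and 42.2 to 70.5 in rescue. Both were lower in every rescue library than in any other library. Their part in the result was not tested either.

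Markers of the pro-B and pre-B stages were higher in rescue. Summed TPM of 6 of 6 (Cd79a, Cd79b, Vpreb1, Igll1, Ebf1 and Pax5) was 199 to 386 in WT, 267 to 352 in ∆Firre and 792 to 1238 in rescue, so that the libraries with the least Ighv RNA had the most RNA of early B-lineage genes. Vpreb1, a part of the surrogate light chain, was higher in rescue than in ∆Firre by 2.50 (SE 0.24, limma adjusted p = 6.92e-05). The sums of 5 mature B cell markers (104 to 339 TPM) and of 6 T cell markers (5.84 to 21.2 TPM) overlapped in all comparisons. So did those of neutrophils (122 to 1418 TPM), erythroid cells (8.70 to 68.4 TPM, 3 of 4 markers found) and plasmacytoid dendritic cells (274 to 451 TPM). Single markers differed. Cd74 made up most of the mature B sum. Rescue was lower than ∆Firre and WT for Ms4a1 (limma adjusted p = 0.0126 and 0.0295) and Cd74 (limma adjusted p = 0.0754 and 0.0527). Trac, a T cell marker, Mpo of neutrophils and Tcf4 of plasmacytoid dendritic cells were lower against both too (limma adjusted p from 0.00682 to 0.0825). Against ∆Firre alone, Ccr9 was called lower and Bst2 higher (limma adjusted p = 0.0649 and 0.0621).

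**Figure D5:**
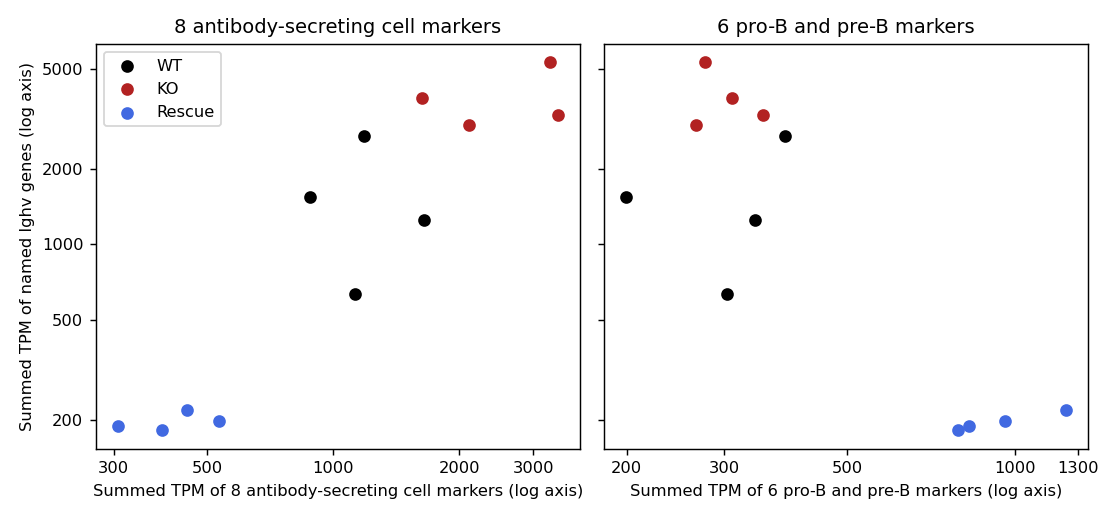
Summed TPM of the named Ighv genes against that of 8 antibody-secreting cell markers (left) and 6 pro-B and pre-B markers (right), both axes on a log scale, with 1 point per library. Rescue libraries are low for Ighv and for the sum of antibody-secreting cell markers and high for pro-B and pre-B markers (792 to 1238 TPM). KO and WT share a range of 199 to 386 TPM on the right. Jchain makes up most of the sum on the left in WT and KO, and Mzb1 and Sdc1 were higher in rescue than in KO.

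A list of 40 genes, of which 39 were tested, was read beside the Ighv genes. It held 14 genes of V(D)J recombination and end joining, 9 of the pre-B receptor and its signalling, and 16 tested genes of transcription and chromatin that act in the B lineage. For ∆Firre against WT none was called by limma or limma-voom, 1 had an unadjusted p under 0.05, and the median fitted difference was -0.03. For rescue against ∆Firre, 16 were called higher and 6 lower (median 0.20), where 8.58% and 19.3% of all genes were. For rescue against WT, 13 were called higher and 5 lower (median 0.21), where 4.82% and 19.4% of all genes were. Counts and background both depended on scaling. After rescaling by the median ratio, 20 were called higher and 3 lower against ∆Firre, with 13.2% and 12.9% of all genes, and 20 and 1 against WT, with 9.08% and 8.62% of all genes. By limma-voom the counts were 22 and 4 against ∆Firre, with 13% and 15.5% of all genes, and 19 and 2 against WT, with 8.23% and 10.2% of all genes.

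The list was grouped by these roles after the values were seen, and the calls were not compared between roles by a test. Of all genes, 8.58% were called higher and 19.3% lower against ∆Firre, and 4.82% and 19.4% against WT. Of the 9 genes of the pre-B receptor and its signalling, 7 were called higher in rescue than in ∆Firre. They were Vpreb1, Vpreb2, Vpreb3, Igll1, Cd79a, Cd79b and Blnk, and all of them except Vpreb2 were called higher than in WT too. Vpreb1, Igll1, Cd79a and Cd79b also stand among the pro-B and pre-B markers above. Of the 14 genes of recombination and end joining, 4 were called higher in rescue than in ∆Firre (Rag1, Hmgb1, Hmgb2 and Poll) and 3 lower (Xrcc5, Lig4 and Polm). Against WT 2 were called higher (Rag1 and Hmgb2) and 1 lower (Xrcc5). The number called lower was thus near the share of all genes against ∆Firre and below it against WT. Rag1, the recombinase subunit, rose in rescue against ∆Firre from 191 ± 41.4 to 312 ± 24.6 TPM (log2 difference 0.73, SE 0.15, limma adjusted p = 0.00773), and did not pass the test for ∆Firre against WT (log2 difference 0.13, limma adjusted p = 1). Hmgb2, a DNA-bending cofactor of RAG, was higher in rescue than in ∆Firre by 0.38 (limma adjusted p = 0.0246). Hmgb1 was called in the same direction at an adjusted p just inside the threshold (limma adjusted p = 0.0998). This call was lost without any single ∆Firre or rescue library and without WT mouse 8 or 11. It was also lost with the mouse number as a replicate block, with a pseudocount of 0.1 and without the filter on low values. Lig4, the ligase of end joining, was lower in rescue than in ∆Firre, at 7.10 ± 2.05 against 11.9 ± 1.39 TPM (log2 difference -0.69, limma adjusted p = 0.0416), a call lost without ∆Firre mouse 11. Xrcc5, the Ku80 subunit that binds broken ends, differed by -0.47 (limma adjusted p = 0.0652), which was not called after rescaling by the median ratio (limma adjusted p = 0.147), by limma-voom, or without ∆Firre mouse 8 or 11 or rescue mouse 2 or 4. Polm, a polymerase of end joining, was at 3.26 ± 0.248 TPM in ∆Firre and 1.10 ± 0.835 TPM in rescue (log2 difference -1.11, limma adjusted p = 0.0799), and its call was lost without any single ∆Firre library and without rescue mouse 1 or 4. Dntt, the terminal transferase that adds N nucleotides at V(D)J junctions, averaged 5609 ± 1066 TPM over the WT libraries (SD, n = 4). It averaged 5553 ± 123 TPM over the ∆Firre and 6382 ± 160 TPM over the rescue libraries (SD, n = 4). Limma did not call Dntt in any comparison. By limma-voom it was called higher in rescue than in ∆Firre (limma-voom adjusted p = 0.0294) and than in WT (limma-voom adjusted p = 0.0143). After rescaling by the median ratio it was called against WT too (limma adjusted p = 0.0763). Xrcc6 was not called by limma either. Limma-voom called it higher in rescue than in ∆Firre (limma-voom adjusted p = 0.0665) and than in WT (limma-voom adjusted p = 0.0369). Rescaling by the median ratio gave a call against WT (limma adjusted p = 0.0746).

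Of the 16 genes of transcription and chromatin, 5 were called higher in rescue than in ∆Firre (Pax5, Ebf1, Tcf3, Pou2af1 and Irf8) and 3 lower (Ikzf3, Pou2f1 and Yy1). Against WT, Pax5, Ebf1, Tcf3, Pou2af1 and Foxo1 were called higher, and Ikzf3, Pou2f1, Pou2f2 and Yy1 lower. Of all genes, 8.58% were called higher and 19.3% lower against ∆Firre, and 4.82% and 19.4% against WT. The numbers called lower in this role were thus near the share of all genes in both comparisons. Ikzf3, which encodes the zinc finger factor Aiolos, was at 16.9 ± 6.26 TPM in ∆Firre and at 4.17 ± 1.07 TPM in rescue (log2 difference -1.75, SE 0.31, limma adjusted p = 0.00271), and was called lower in rescue in both comparisons under each of the 21 alternatives. Pou2f1 and Yy1 were not called in either comparison after rescaling by the median ratio. The calls of Vpreb2, Poll, Irf8, Pou2f1 and Yy1 against ∆Firre, and of Hmgb2, Xrcc5, Foxo1, Pou2f1 and Pou2f2 against WT, were each lost with some single libraries left out. Ikzf1 and Rad21 were not called by limma or limma-voom in any comparison, though Ikzf1 was called against WT without rescue mouse 3.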

How the data were processed

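Poly(A) RNA of sorted CLPs was sequenced by the authors in paired-end libraries, 1 per mouse. The authors trimmed adapters with cutadapt, mapped reads to mm10 with TopHat2 2.1.1 and counted them per Gencode vM9 gene with featureCounts, and deposited TPM for 47643 genes. Strand and multi-mapping settings are not given in the sources used here. Groups came from the sample labels. Whether same-numbered mice are related is not stated, so p-values measure the spread between mice.

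Symbols came from a gene name table (32799 genes) and, for genes not in it, from the study's lists of differential expression, from which no value was used. Coordinates came from RefSeq GRCm38.p6, the build of the files, by symbol. The members and lists were chosen with earlier results of these data known. No promoter of an Ighv gene was in the tables used here.

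A gene entered the test if its mean over the 12 libraries was 1 TPM or more (14479 genes). After transformation to log2(TPM + 1), the 3 groups were fitted jointly by limma 3.58.1 under R 4.3.3 (lmFit, eBayes with trend). Two-sided p-values received the Benjamini-Hochberg adjustment over all genes, and the threshold for a call was 0.1. A difference is on the log2(TPM + 1) scale, which understates changes of low genes. On simulated data the fit recovered most changed genes, and its share of false calls was near or somewhat above the nominal one. Sums over genes, shares and the inverse Simpson index were computed with Python 3.11.15, numpy 2.4.6 and pandas 2.3.3 and were not tested. Sequences were aligned with Biopython 1.88.

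Whole reads were recovered from the spacing of TPM values, within a tolerance of 0.02 reads, for 99.0% of the genes tested, and were used for depth and for limma-voom with library sizes scaled by the median ratio. As no molecular identifiers were used, a read is not a separate molecule.

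Genes were named by rule: the 10 of highest mean TPM, the top gene of each library and of each family, and in each comparison the 3 largest rises and falls among called genes. Ighv1-50, Ighv5-4, Ighv1-18, Ighv2-3 and Ighv8-14 and, of the recombination list, genes beyond the 6 of highest mean TPM were named after their values were seen, and that list was grouped by role then too. Alternatives were other pseudocounts, filters, scalings, fits, a block and each library left out. One gene of the marker and recombination lists is not reported here.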

Additional observations from a re-analysis of the deposited data

Results flagged for a closer look

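Within groups of 4 libraries, 51 sets of values of the named genes were screened for a library that stands apart from the other 3 (gap to the nearest value, over the range, above Dixon's limit at the 95% level), and 11 sets held one. Chance gives about 1 in 20 for values that spread evenly, but in 7 of the 11 sets the other 3 libraries were all at 0, where any gene seen in a single library meets the limit, so the number of sets is not compared with chance. All values here are log2(TPM + 1). In WT mouse 8, Ighv1-64 was at 5.48 against 1.03 to 1.43, Ighv5-9 at 7.15 and Ighv3-8 at 6.11, where the other WT mice were at 0. In WT mouse 6, Ighv8-12 was at 6.77 and Ighv15-2 at 1.98, again with the others at 0. In ∆Firre mouse 11, Ighv3-8 was at 7.82 against 5.79 to 6.11, and in ∆Firre mouse 9, Ighv8-12 was at 0 against 6.48 to 6.88. In rescue mouse 2, Ighv9-3 was at 2.49 against 0 to 0.34 and Ighv8-12 at 4.36 against 0. Ighv6-3 in rescue mouse 4 (0.38) and Ighv5-12 in rescue mouse 3 (0.34) rest on 1 read each. No library stood apart for most of its genes.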

How the results depend on the processing

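Summed Ighv expression kept its direction in all 3 comparisons under every alternative. As differences between the group means of the log2 sum per library, the values with each library left out ranged from 1.11 to 1.81 for ∆Firre against WT, from -4.36 to -4.09 for rescue against ∆Firre and from -3.14 to -2.45 for rescue against WT. Rescue against ∆Firre was -3.91 without Ighv9-3. Over the 6 independently named genes, an alternative chosen after seeing the data, the measure had to be the log2 ratio of group means, since some libraries are at 0. It was 2.46 for ∆Firre against WT and -4.68 for rescue against ∆Firre and is not on the same footing as the values above. For ∆Firre against WT, 1 Ighv gene was called in the reported fit, 2 with a pseudocount of 5, and 0 with only the groups compared, by limma-voom or with the range of library numbers as a term, and 0 to 2 with 1 library left out. For rescue against ∆Firre, 16 were called, 10 without the filter, 10 at an adjusted p of 0.05 and 11 to 17 with 1 library left out. For rescue against WT, 4 were called, 2 by limma-voom and 3 to 5 with 1 library left out. Without rescue mouse 1, these calls went both ways, with 3.03% of the tested Ighv genes higher and 9.09% lower. The cause of these shifts was not tested.

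Fitted differences that changed sign were all of genes not called in that comparison. For rescue against WT, Ighv1-64 was at -0.82 with a pseudocount of 0.1, at -0.50 by limma-voom and at -1.27 to 1.06 with 1 library left out, Ighv1-74 at -0.15 to 0.44, and Ighv8-12 at -1.69 to 1.09. For ∆Firre against WT, a pseudocount of 5 gave 0.11 for Ighv6-3 and -0.091 for Ighv1-9, and leaving out 1 library gave -1.04 to 3.07 for Ighv9-3, -2.03 to 1.15 for Ighv6-3, -0.78 to 2.44 for Ighv5-17, -0.54 to 2.05 for Ighv1-9 and -2.11 to 0.56 for Ighv5-12. Of the other values of named genes, 7 in ∆Firre against WT, 37 in rescue against ∆Firre and 15 in rescue against WT lost their call, and 1, 13 and 4 gained one.

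Rescaling TPM by the median ratio moved the median of all genes from -0.16 to -0.05 for rescue against ∆Firre, and the calls over all genes from 1242 higher and 2801 lower to 1901 and 1861. For rescue against WT they moved from 698 and 2814 to 1311 and 1245. Ighv medians then were -3.41 and -0.66. Mouse numbers 8 and 11 occur in both WT and ∆Firre, but same-numbered libraries did not deviate together (correlations -0.0328 and -0.0411), and whether these mice are related is not stated, so the number was not taken as a pairing. With this number as a replicate block, 1, 16 and 4 Ighv genes were called, as without it. The call of Hmgb1 in rescue against ∆Firre was lost with the block. Depth limits low genes: in WT, 3 reads on a V segment are worth up to 2.43 TPM.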
